A study of Mus musculus with 168 samples.

Results

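The 9 genes described here encode the calcitonin family peptides and the receptors they share: Calca, Calcb, Iapp and Adm for the peptides, Calcr and Calcrl for the receptors, and Ramp1, Ramp2 and Ramp3 for the receptor activity-modifying proteins. They were chosen by name, as 9 of the 39410 rows of the expression table. The choice was made with the results of ocular neurons at day 10 already known, where Iapp was high and Calcb low in mutant mice. The values of all members in that comparison are therefore given as a description with no test.

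RNA came from neurons cut by laser out of frozen tissue of delta7 mice, a model of spinal muscular atrophy (SMA), in which motor neurons are lost for want of the SMN protein. SMA mice had the genotype Smn-/-/SMN2+/+/SMN∆7+/+. Controls were littermates with the genotype Smn+/+/SMN2+/+/SMN∆7+/+, so both human transgenes were present in both groups. Motor neurons were collected from the ocular nuclei (oculomotor and trochlear), the facial, vagus and hypoglossal nuclei and the lumbar spinal cord, and the sixth population was red nucleus neurons of the midbrain, at postnatal days 2, 5 and 10. No treatment is named in the labels. Cells of a nucleus were pooled in each tube, and the 2 ocular nuclei were in part captured separately. The 168 libraries came from 34 mice (19 SMA and 15 control) and were averaged to 160 samples of mouse and population, 88 SMA and 72 control, in 36 groups of 3 to 7 mice. Levels are RPKM, the reads of a gene per kilobase and per unit of library depth, and the mouse is the replicate. In pooled cells, fewer cells of a kind and less RNA per cell cannot be told apart.

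Smn1, the deleted gene, checked the labels: control samples had at least 4.32 RPKM and SMA samples at most 4.24, with 70 of 88 SMA samples at 0. Chat, which makes acetylcholine, averaged 20.2 to 33.9 RPKM over the controls of the motor populations and 0.176 ± 0.514 in red nucleus controls (SD, n = 11), where the glutamate transporter Slc17a6 averaged 177.4 ± 36.25 and the transcription factor Pou4f1 averaged 227.8 ± 132.3. The median depth was 5.89 M reads, where M stands for mega, and the range over libraries was 0.342 to 16.3 M. Control mouse 252 at day 10 had the shallowest library, from its red nucleus, in which 3 reads of Iapp would be 9.01 RPKM. A value of 3 reads is used below as the floor under which a gene is not called present. It covers counting error only.

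Calcitonin gene-related peptide (CGRP) is made in 2 forms, α-CGRP from Calca and β-CGRP from Calcb. Motor neurons release it together with acetylcholine at the neuromuscular junction, where it is known for raising synthesis of the muscle acetylcholine receptor. Amylin, from Iapp, is best known as a hormone of pancreatic β-cells and is also made by some sensory neurons. Adrenomedullin, from Adm, dilates vessels and is induced by hypoxia. Their receptors are built from parts. Calcrl with Ramp1 is the CGRP receptor, Calcrl with Ramp2 or Ramp3 binds adrenomedullin, Calcr alone binds calcitonin, and Calcr with a RAMP binds amylin.

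The coding stretches of the mature 37-residue peptides are printed because the 2 CGRP genes are near copies, so their reads could be confused, while Iapp is distant from both. They are from GENCODE M21 on GRCm38, 5′ to 3′ in the sense of the gene, and capitals mark bases that differ from Calca.
Calca: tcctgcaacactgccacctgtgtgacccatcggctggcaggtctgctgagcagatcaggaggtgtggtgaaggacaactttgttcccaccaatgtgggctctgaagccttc
Calcb: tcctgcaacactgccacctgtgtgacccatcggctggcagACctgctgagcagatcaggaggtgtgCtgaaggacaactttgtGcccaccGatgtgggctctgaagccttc
Iapp: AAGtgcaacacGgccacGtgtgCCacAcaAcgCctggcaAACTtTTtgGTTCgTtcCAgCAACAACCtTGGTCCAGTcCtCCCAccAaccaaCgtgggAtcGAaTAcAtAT

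The Calca stretch lies in exon 4 of 5 at chr7:114632470-114632580 on the minus strand. The Calcb stretch lies in exon 4 of 5 at chr7:114721994-114722104 on the plus strand and differs from Calca at 5 bases, with 95.5% identical. Iapp carries its stretch in exon 3 of 3 at chr6:142303334-142303444 on the plus strand, and differs at 55 bases, with 50.45% identical. Over whole transcripts, the longest run shared by Calca and Calcb was 61 bases. Of the 50-base windows of the longest Calca transcript 1.27% occurred in transcripts of Calcb. Of those of the longest Calcb transcript 1.21% occurred in transcripts of Calca. The other members lie, in the same annotation, on chromosome 7 from 110627661 to 110629820 (Adm, plus strand), 6 from 3685680 to 3764714 (Calcr, minus), 2 from 84330626 to 84425411 (Calcrl, minus), 1 from 91179822 to 91225196 (Ramp1, plus), and 11 from 101246028 to 101259546 (Ramp2, plus) and from 6658521 to 6677475 (Ramp3, plus). Of the 7 annotated Calca transcripts only 2 hold the CGRP stretch; the row of Calca joins calcitonin and α-CGRP transcripts, which the table does not separate.

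Both CGRP genes were far higher in the somatic motor populations (ocular, facial, hypoglossal and lumbar) than in vagus or red nucleus neurons. Over all ages, Calca averaged 2216 ± 745 RPKM in hypoglossal controls (SD, n = 12), 1772 ± 375 in lumbar (n = 13), 811.8 ± 237.6 in facial (n = 13), 411 ± 194.1 in ocular (n = 12), 15.5 ± 27.8 in vagus (n = 11) and 4.41 ± 4.51 in red nucleus controls (n = 11). Its level in the lowest hypoglossal control, 1145 RPKM, was above that of the highest ocular control, 737.7. In a limma fit of all control samples with the mouse as a block, 14 of the 15 population pairs differed for Calca after adjustment over all genes. The pair that did not was hypoglossal and lumbar, with a log2 difference of 0.20 (SE 0.35, adjusted p 0.827). Facial over ocular was the narrowest step called, at 0.97 (SE 0.34, adjusted p 0.0483), and it was called in only 4 of 15 refits that left a mouse out, with adjusted p up to 0.161 over all alternatives.

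Calcb ran in another order. It averaged 1101 ± 295 RPKM in lumbar controls (SD, n = 13), 884 ± 282 in hypoglossal (n = 12), 766 ± 268 in ocular (n = 12), 503.3 ± 168.9 in facial (n = 13), 27.5 ± 20.1 in red nucleus (n = 11) and 13.0 ± 14.3 in vagus controls (n = 11). Neighbours in this order did not differ past the threshold among lumbar, hypoglossal and ocular (adjusted p 0.428 and 0.864), nor did ocular and facial (log2 difference 0.67, SE 0.27, adjusted p 0.0943). Facial lay below lumbar by 1.19 (SE 0.27, adjusted p 0.00195). Red nucleus exceeded vagus by 1.58 (SE 0.30, adjusted p 3.51e-05), the reverse of Calca, which was higher in vagus by 1.12 (SE 0.38, adjusted p 0.0227). That Calca difference was called in 10 of 15 refits without a mouse. All 10 Calcb calls stayed in each of the 20 alternatives. Over the 9 members, 56 of 135 pair results were past the threshold (41.5%), beside 17.6% of all gene results in the same 15 pairs. The ocular pairs use the day 10 controls that had a part in the choice of the genes, so the shares are not compared. Of the 56 calls, 36 stayed in every alternative.

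**Figure D1:**
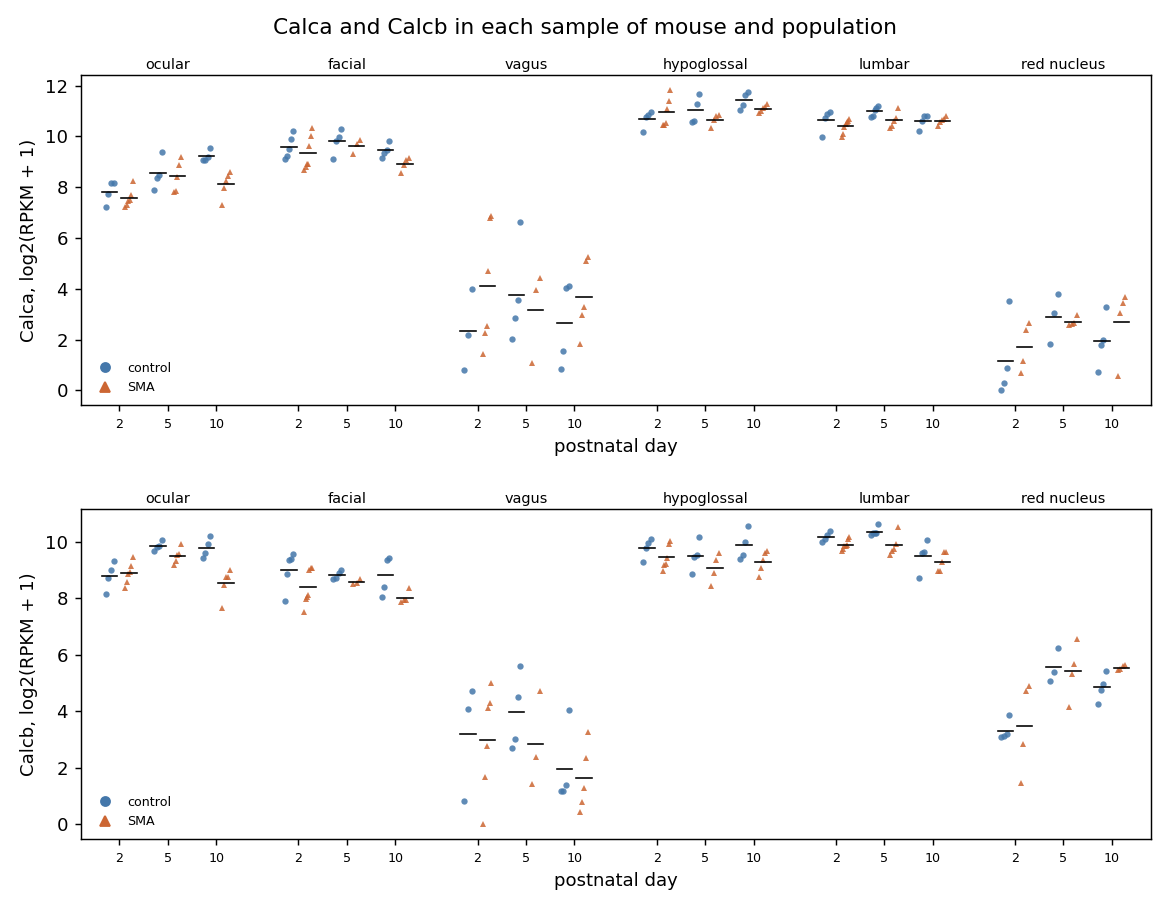
Calca (top) and Calcb (bottom) as log2(RPKM + 1) in each of the 160 samples, by population and postnatal day, with controls as circles, SMA as triangles and group means as bars. Ocular, facial, hypoglossal and lumbar samples sit far above vagus and red nucleus, and in ocular neurons at day 10 the SMA samples lie below all 4 controls for both genes.

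In controls the balance of the 2 genes in the ocular nuclei did not overlap that in the other somatic motor nuclei. Calcb made up 65.6% ± 7.24 of the summed Calca and Calcb level in ocular controls (SD, n = 12) and exceeded Calca in 12 of 12 samples. In facial controls its share was 38.0% ± 7.14 (n = 13), with Calcb above Calca in 0 of 13 samples. Hypoglossal controls had 28.9% ± 5.61 (n = 12), again with 0 of 12, and lumbar controls 38.0% ± 5.96 (n = 13), with 1 of 13. The lowest ocular control, 56.3%, was above the highest facial, hypoglossal and lumbar controls, at 48.3%, 38.4% and 50.4%. SMA samples had 65.6% ± 9.02 in ocular (n = 16), 34.3% ± 3.73 in facial (n = 14), 24.8% ± 4.36 in hypoglossal (n = 15) and 36.5% ± 7.60 in lumbar neurons (n = 17). Among SMA samples the ranges overlapped: the lowest ocular share was 44.7% and the highest lumbar share 50.3%, and Calcb exceeded Calca in 15 of 16 ocular samples. The share was not tested as such.

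**Figure D2:**
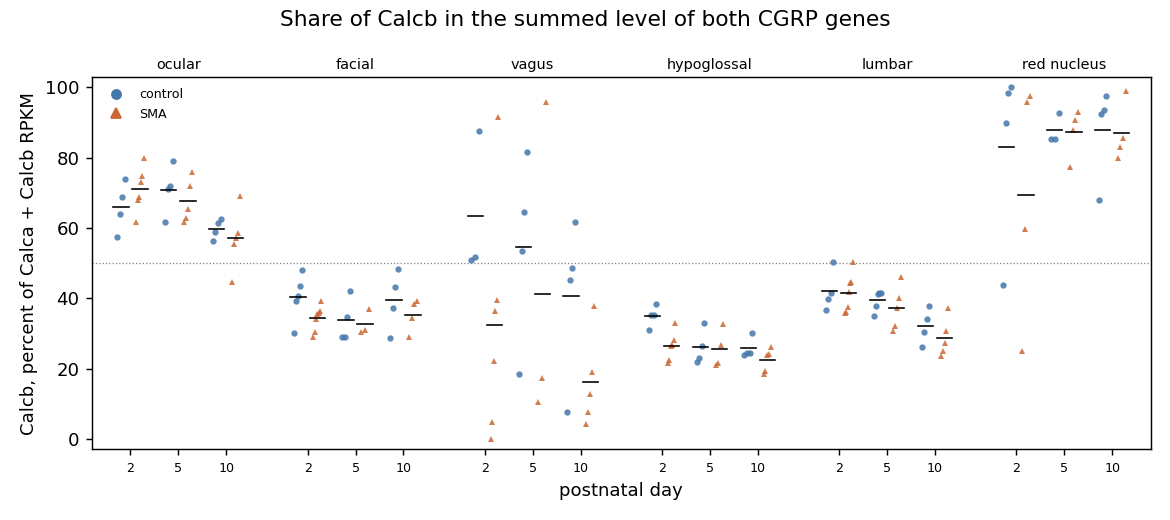
Share of Calcb in the sum of Calca and Calcb RPKM, in percent, for each sample by population and postnatal day, with group means as bars and a dotted line at equal levels. The 12 ocular controls lie at 56.3% or higher, above the facial, hypoglossal and lumbar controls, and vagus and red nucleus samples, where both genes are low, scatter widely.

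Between day 2 and day 10 the CGRP genes were higher in ocular controls and Calcb was lower in lumbar controls. Ocular Calca was 149, 211, 288 and 289 RPKM in the 4 controls at day 2 and 536, 540, 578 and 738 in those at day 10, a log2 difference of 1.39 (SE 0.32). Ocular Calcb was 284, 424, 513 and 640 at day 2 and 692, 770, 971 and 1179 at day 10, a difference of 0.99 (SE 0.26). These 2 ages overlapped for neither gene. At day 5 the ocular controls averaged 401 RPKM for Calca, beside 598 at day 10. Their Calcb averaged 929.5 at day 5, already near the 903 of day 10. The 4 day 10 controls are those against which ocular SMA samples were set when the genes were chosen. Both age differences passed the threshold in the fit, but they are given as a description and nothing is read from their p-values. In ocular controls 4.38% of all genes tested were higher at day 10, and nothing is read from that share. The 6 oligodendrocyte markers summed to 17.3 to 29.2 RPKM at day 2 and 351 to 503 at day 10 in these controls, with all 6 past the threshold upward. Their part in the result was not tested.

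In lumbar controls Calcb was 1026, 1088, 1208 and 1322 RPKM at day 2 and 421, 783, 794 and 1072 at day 10. The highest day 10 value overlapped the day 2 range. Between them, at day 5, the lumbar controls averaged 1321 RPKM, above the 1161 of day 2. The log2 difference was −0.67 (SE 0.21, adjusted p 0.0342), where 7.25% of all genes were lower at day 10. It missed the threshold without mouse 240 (adjusted p 0.0960), 244 (0.0791) or 253, where the difference shrank to −0.40 (adjusted p 0.203). It was also lost with no filter on low values (0.0642) and from the 2 groups alone (0.152). The estimate for Calca there was −0.04 (SE 0.19, adjusted p 0.944). In lumbar controls the 6 oligodendrocyte markers summed to 16.85 to 46.9 RPKM at day 2 and 537 to 1176 at day 10, and the 6 astrocyte markers to 1441 to 1769 and then 1039 to 1231. Their part in the result was not tested. Over the 6 populations, 6 of 45 member results were past the threshold (13.3%), beside 7.06% of all gene results. Of the 6, 2 are the ocular CGRP results, which share samples with the choice of the genes, so the shares are not compared.

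In ocular neurons at day 10 the SMA samples lay below the controls for both CGRP genes. Calca was 158.5, 249, 306, 344 and 383 RPKM in the 5 SMA mice, against the 536 to 738 of the controls. Calcb was 200.8, 355, 430, 434 and 513 in SMA, against 692 to 1179. The groups overlapped for neither gene, and the log2 differences were −1.10 (SE 0.30) for Calca and −1.26 (SE 0.25) for Calcb. The Calcb share was close to that of controls, 57.1% ± 8.73 (SD, n = 5) beside 59.8% ± 2.86 (n = 4). At day 2 and day 5 the ocular differences of Calca were −0.26 (SE 0.29) and −0.12 (SE 0.30), and those of Calcb 0.08 (SE 0.24) and −0.35 (SE 0.25), with adjusted p of 0.766 to 0.977. The 5 motor neuron markers summed to 452.5 to 875 RPKM in the SMA samples of day 10 and 926 to 1024 in the controls. The 2 red nucleus markers summed to 9.07 to 176.9 RPKM in those SMA samples, with a median of 23.8, and to 4.74 to 16.9 in the controls. No marker of either list was at 0 in all samples of a group, and their part in the CGRP values was not tested.

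Elsewhere no limma difference of the CGRP genes between SMA and control passed the threshold, in any of 17 contrasts for either gene. Calcb estimates were negative in 10 of the 11 tested contrasts of ocular, facial, hypoglossal and lumbar neurons, with a median of −0.35, while the median over all genes lay between −0.01 and 0.13 in the 17 contrasts. The 2 ocular contrasts among them, and 3 contrasts in each other population, share mice between populations, so they are not independent. In 4 of the 17 contrasts Calcb had an unadjusted p under 0.05, and its lowest adjusted p was 0.478. Calca was negative in 9 of the same 11 contrasts, with a median of −0.26 and no unadjusted p under 0.05. How many of all genes had as many negative estimates was not counted. Calcb was also chosen with its low level in ocular SMA neurons known, so nothing is read from these counts.

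Among the somatic motor populations the largest tested Calcb estimate was in facial neurons at day 10. Controls had 265, 340, 652 and 693 RPKM and SMA mice 232.3, 243.2, 245.02 and 330. The groups overlapped, and the log2 difference was −0.79 (SE 0.34, adjusted p 0.542). In lumbar neurons at day 5 the controls had 1224, 1264, 1268, 1275 and 1572 and the SMA mice 736, 808, 850, 980 and 1460. Of the 5 SMA mice 4 lay below every control, and the difference was −0.49 (SE 0.19, adjusted p 0.478). Per the labels, reads of an earlier deposit were pooled into these lumbar day 5 control libraries at mapping, and its part in this difference was not tested. Hypoglossal neurons at day 10 had 679, 747, 1024 and 1496 in controls and 432, 539, 650, 770 and 809 in SMA, a difference of −0.59 (SE 0.28, adjusted p 0.71).

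Averaging the genotype difference over the 3 ages was chosen after these values were seen. It gave −0.55 (SE 0.19, adjusted p 0.286) for Calcb in facial, −0.45 (SE 0.16, adjusted p 0.406) in hypoglossal and −0.33 (SE 0.11, adjusted p 0.236) in lumbar neurons. None of the 37 age-averaged member results outside the ocular nuclei passed the threshold in limma, where 0.278% of all gene results passed. At an unadjusted p under 0.05 there were 7 member results. All genes had 1751 of 17270 in facial, 853 of 16703 in vagus and 1414 of 16486 in hypoglossal neurons. They had 1656 of 16382 in lumbar and 1077 of 16134 in red nucleus neurons. In red nucleus neurons the Calcb differences were 0.17 (SE 0.56) at day 2, −0.14 (SE 0.60) at day 5 and 0.69 (SE 0.56) at day 10, none past the threshold. At day 10 Calcb was 18.3, 26.2, 30.0 and 42.6 RPKM in controls and 43.3, 43.9, 47.4 and 49.3 in SMA, without overlap, with an adjusted p of 0.935. How many of all genes did not overlap there was not counted. The nearest samples of the genotypes were 42.6 and 43.3. The 42.6 came from control mouse 252, the shallowest library, in which 3 reads of Calcb would be 6.94 RPKM, more than this gap.

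**Figure D3:**
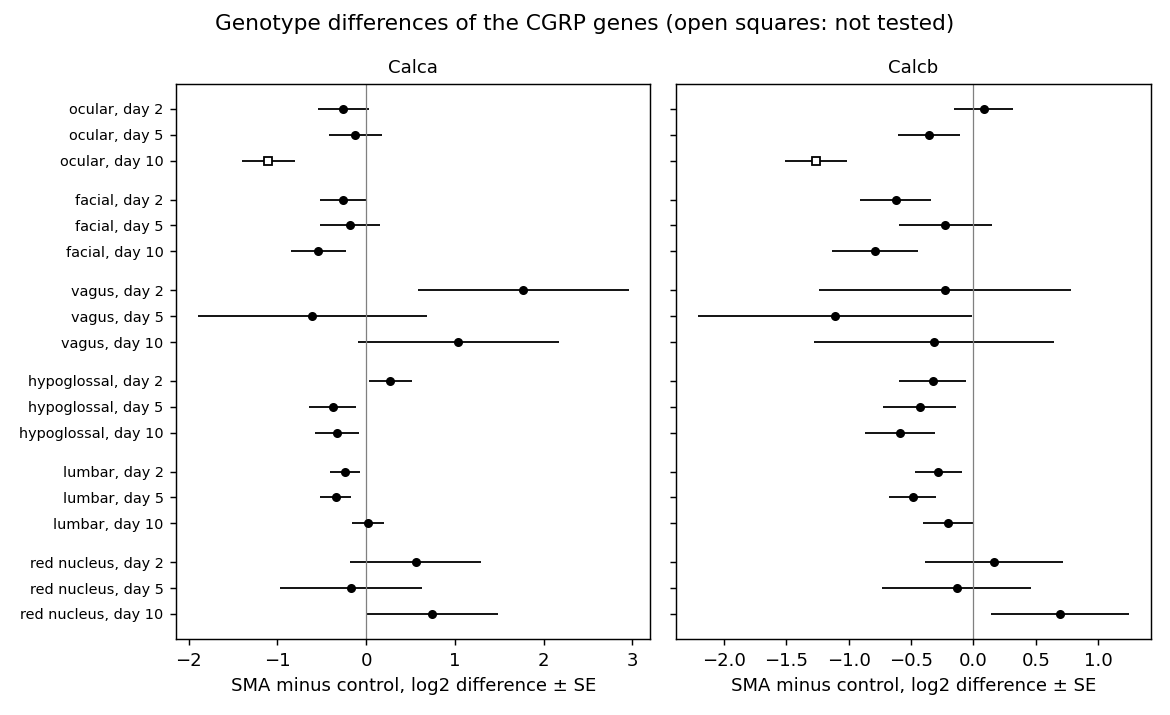
Log2 differences between SMA and control for Calca (left) and Calcb (right) with their standard errors, one line for each population and day, filled circles where tested and open squares for ocular day 10, which was not. Calcb estimates lie left of 0 in facial, hypoglossal and lumbar neurons at every age, and no tested difference passed the threshold.

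Iapp was at or near 0 in most samples. In controls it was above the floor in 0 of 12 ocular, 0 of 12 hypoglossal, 0 of 13 lumbar and 0 of 11 red nucleus samples, in 2 of 13 facial and in 3 of 11 vagus samples. In SMA ocular neurons at day 10 all 5 mice had it, at 15.2, 29.4, 34.2, 34.7 and 66.8 RPKM, while the 4 controls were at 0. The mean of 36.1 ± 18.9 (SD, n = 5) is at least 48.7-fold the largest floor among those controls, 0.741 RPKM. None of the 11 ocular SMA samples at days 2 and 5 was above its floor, the highest being 0.130.

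In lumbar neurons at day 10 Iapp was 0 in all 4 controls and 0, 1.84, 9.80, 14.4 and 15.3 RPKM in the SMA mice. Of the 5 SMA mice 4 lay above every control, and the mean of 8.27 ± 7.06 (SD) is at least 7.67-fold the largest control floor of 1.08. Iapp entered the lumbar fit only through SMA samples, since 7 lumbar SMA samples and no lumbar control were above the floor, so a gene like it had to differ once it passed the filter. The fitted log2 difference was 2.58 (SE 0.61, limma adjusted p 0.0351), and with no filter on low values the adjusted p was 0.0662. It was the single genotype result of a member past the threshold. The share of member results past it over the 17 contrasts, 0.787%, stands beside 0.116% of all gene results, and 0.708% of genes were higher in SMA in this contrast. For the reason given, nothing is read from these shares. A further 14 member results had an unadjusted p under 0.05. With the called one, they were 4 of 17 tested for Calcb, 3 of 14 for Iapp and 2 of 8 for Calcr. Ramp2 and Ramp3 had 2 of 17 each, Ramp1 1 of 17 and Adm 1 of 14. Calca had 0 of 17 and Calcrl 0 of 6. Over all genes 7.17% of results in the 17 contrasts had such a p. The contrasts share mice, so the member counts are not compared with that share.

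The result also moved with single mice. It missed the threshold without SMA mouse 196 (2.22, adjusted p 0.0938), 250 (2.24, adjusted p 0.133) or 258 (2.37, adjusted p 0.0918). It also missed it without any of the controls 247, 252, 253 or 254, with adjusted p of 0.0788 to 0.0895 at the same difference. With a pseudocount of 0.1 the adjusted p was 0.0537, and from the 2 groups alone 0.256. A fit of all populations with the mouse as replicate block gave an adjusted p of 0.00447, and called 3 member results in place of 1. That fit takes 1 spread per gene from all 36 groups, and Iapp was at or near 0 in most samples. Nothing is read from its lower adjusted p. Pericyte and smooth muscle markers (8 genes, led by Rgs5) summed to 15.2 to 37.7 RPKM in these SMA samples and 9.36 to 15.3 in the controls, and 0 of the 8 were at 0 in all samples of either group. Sensory neuron markers (6 genes, led by Isl2, which motor neurons also express) summed to 16.5 to 28.1 in SMA and 19 to 36.1 in controls, with 2 of the 6 at 0 in all SMA samples and 1 in all controls. Their part in the result was not tested.

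Iapp was also found at day 10 in other SMA motor neurons, with no difference past the threshold. Hypoglossal SMA mice had 0, 1.48, 2.12, 3.13 and 7.72 RPKM and all 4 controls were at 0. Here too Iapp passed the filter only through SMA samples, being above the floor in 5 of 15 hypoglossal SMA samples and 0 of 12 controls. The fitted difference was 1.62 (SE 0.43, adjusted p 0.267), and 2.03 (adjusted p 0.0282) without mouse 199, the SMA mouse at 0; neither is read as a result. Facial SMA mice had 0, 0, 10.9 and 12.7 with all 4 controls at 0, a difference of 1.84 (SE 0.84, adjusted p 0.594). At younger ages facial controls had Iapp too, above the floor in 1 of 5 at day 2 and 1 of 4 at day 5. The highest of them had 10.1 RPKM. Facial SMA samples were above the floor in 3 of 7 at day 2 and 0 of 3 at day 5. The same mouse was not high throughout: mouse 199 was at 0 in lumbar and hypoglossal neurons, at 12.7 in facial and at 29.4 in ocular neurons.

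In vagus neurons at day 10 Iapp was present in controls too. They had 0, 0.231, 5.06 and 12.9 RPKM and SMA mice 0, 0.409, 1.10, 2.11 and 8.59, which overlapped throughout (log2 difference −0.38, SE 0.68, adjusted p 1). Whether the genotype difference at day 10 differed between facial, vagus, hypoglossal, lumbar and red nucleus neurons was tested with an F test over all 5. For Iapp the adjusted p was 0.141, and the lumbar difference exceeded that of vagus by 2.96 (SE 0.78, adjusted p 0.095). Without mouse 199 Iapp passed this F test. None of the 9 members passed in the full data, where 0.552% of all genes passed. At an unadjusted p under 0.05 there was 1 member, beside 1678 of 22270 genes. In red nucleus neurons Iapp was above the floor in 2 of 12 SMA samples, the highest at 0.965 RPKM. No member result had a genotype difference that changed with age in the 5 populations outside the ocular nuclei (0 of 37, with 3 at an unadjusted p under 0.05), nor in any alternative. Over all genes 0.0217% did at the adjusted threshold. At an unadjusted p under 0.05 it was 985 of 17270 genes in facial, 953 of 16703 in vagus and 1158 of 16486 in hypoglossal neurons. In lumbar neurons it was 1322 of 16382 genes and in red nucleus neurons 913 of 16134.

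**Figure D4:**
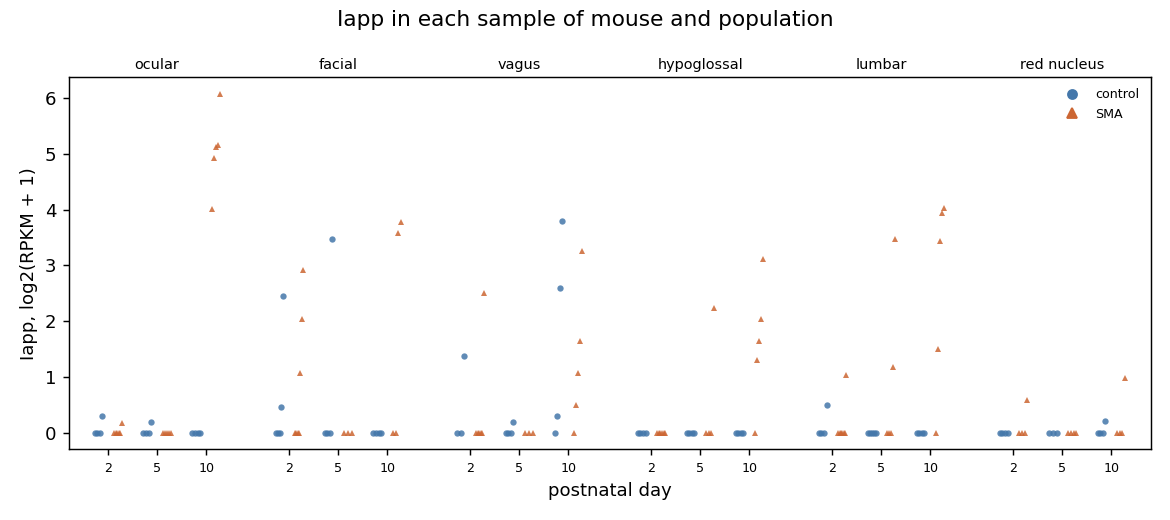
Iapp as log2(RPKM + 1) in each of the 160 samples by population and postnatal day, controls as circles and SMA as triangles. Ocular SMA samples at day 10 lie between 15.2 and 66.8 RPKM with all controls at 0, hypoglossal, facial and lumbar SMA samples at day 10 are partly above 0, and vagus shows Iapp in both genotypes.

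Adm, the gene of adrenomedullin, had its highest control mean, ages together, in ocular neurons. At day 10 the red nucleus controls stood higher, at 17.4 RPKM beside 11.5. It averaged 9.35 ± 7.39 RPKM in ocular controls (SD, n = 12), 6.45 ± 11.1 in red nucleus (n = 11), 3.52 ± 3.47 in facial (n = 13), 3.43 ± 4.13 in hypoglossal (n = 12), 2.97 ± 3.12 in lumbar (n = 13) and 0.647 ± 1.58 in vagus controls (n = 11). In the fit over all ages ocular controls exceeded all 5 other populations, by 1.29 (SE 0.38, adjusted p 0.0146) over facial up to 2.71 (SE 0.41, adjusted p 4.35e-07) over vagus. The steps over facial and lumbar were each called in 13 of 15 refits without a mouse. Facial, hypoglossal, lumbar and red nucleus did not differ from each other past the threshold.

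Adm came up with age in red nucleus and facial controls. In the red nucleus it was 0 in all 4 controls at day 2, 0, 0.0809 and 1.34 at day 5, and 9.91, 10.2, 13.4 and 36.01 RPKM at day 10. Day 10 samples were far above the others, with a log2 difference from day 2 of 4.0 (SE 0.47, adjusted p 6.64e-06). Mouse 252, the shallowest library, had the 36.01, and without it the call stood, as in every alternative. In the red nucleus Adm passed the filter only through day 10 samples, all day 2 samples of both genotypes being at 0. A gene like it had to differ between these ages, so nothing is read from the call. In red nucleus controls 5.72% of genes were higher at day 10. Facial Adm was 0, 0, 0.4003, 1.01 and 1.06 at day 2 and 3.09, 6.19, 8.96 and 9.43 at day 10, without overlap, a difference of 2.39 (SE 0.55, adjusted p 0.00772). This too was called in every alternative, in a population where 2.60% of genes were higher at day 10.

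Markers of other cell types were read in the same samples. In facial controls the 6 oligodendrocyte markers summed to 24.15 to 42.5 RPKM at day 2 and 235 to 275.5 at day 10, with 5 of the 6 past the threshold upward. In red nucleus controls the 10 endothelial markers summed to 1.51 to 19.5 RPKM at day 2 and 4.89 to 7.99 at day 10, with 2 of the 10 at 0 in all day 2 samples. The 6 oligodendrocyte markers went from 17.5 to 26.6 up to 322 to 651, and the 6 astrocyte markers, nearly all Aldoc, from 618 to 981 up to 1464 to 1849. Their part in the Adm results was not tested. Between genotypes Adm did not change past the threshold. Its largest estimate was in the red nucleus at day 10, where SMA mice had 1.85, 3.34, 4.69 and 15.9 RPKM against the 9.91 to 36.01 of controls (−1.44, SE 0.47, adjusted p 0.569).

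Of the receptors, Calcr, which binds calcitonin and with a RAMP amylin, had its highest control mean, ages together, in vagus neurons. It averaged 5.65 ± 5.45 RPKM in vagus controls (SD, n = 11), 1.32 ± 1.67 in ocular (n = 12), 0.927 ± 1.29 in lumbar (n = 13), 0.836 ± 2.77 in red nucleus (n = 11), 0.0884 ± 0.306 in hypoglossal (n = 12) and 0.0217 ± 0.0595 in facial controls (n = 13). Vagus exceeded each other population, by 1.29 (SE 0.32, adjusted p 0.00142) over ocular up to 2.22 (SE 0.31, adjusted p 1.18e-07) over facial, and these 5 calls stayed in every alternative. The red nucleus mean came from 1 sample of 11 at 9.20, the other 10 being at 0. Calcr was above the floor in 24 of 25 vagus samples of both genotypes and in 1 of 27 facial samples. At single ages the order was not fixed: day 5 controls averaged 1.97 in lumbar and 1.84 in vagus neurons, and day 2 SMA samples 9.52 in ocular and 7.60 in vagus neurons.

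Calcr in SMA ocular neurons at day 2 was 0.523 at the lowest, 5.39 at the median and 23.7 RPKM at the highest of 6 mice, and 0, 0.122, 0.344 and 4.59 in controls. The highest control lay within the SMA range. The log2 difference was 2.09 (SE 0.71, adjusted p 0.253). It reached an adjusted p of 0.0461 in the fit of all populations with the replicate block, where the spread is pooled over all groups. In lumbar neurons at day 2 the Calcr difference was 1.31 (SE 0.56, adjusted p 0.807), and in vagus neurons −0.03 (SE 0.73).

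Calcrl, the core of the CGRP and adrenomedullin receptors, stayed low everywhere. Its means in controls ran from 0.155 ± 0.244 RPKM in ocular (SD, n = 12) to 0.935 ± 0.930 in vagus neurons (n = 11). The vagus level exceeded the ocular by 0.74 (SE 0.21, adjusted p 0.00701) in every alternative. Its step over facial, 0.56 (SE 0.21, adjusted p 0.0450), was called in 8 of 15 refits without a mouse and in 1 of 5 other settings, with adjusted p up to 0.161. Calcrl did not pass the low-value filter within ocular, facial, hypoglossal or lumbar neurons, so its genotype difference was tested in 6 contrasts only, with the lowest adjusted p at 0.81.

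Ramp1, the CGRP partner, was present in every population. It averaged 20.9 ± 5.12 RPKM in lumbar controls (SD, n = 13), 14.9 ± 7.39 in hypoglossal (n = 12), 12.7 ± 8.51 in ocular (n = 12), 12.2 ± 4.02 in facial (n = 13), 8.63 ± 4.61 in red nucleus (n = 11) and 7.89 ± 4.88 in vagus controls (n = 11). Lumbar exceeded vagus by 1.34 (SE 0.30, adjusted p 0.000337) and red nucleus by 1.19 (SE 0.30, adjusted p 0.0023) in every alternative. Neighbours in the order did not differ past the threshold. In ocular neurons at day 2 Ramp1 was 0, 2.14, 5.91 and 18.4 in controls and 12.1, 13.2 and 32.5 at the lowest, median and highest of 6 SMA mice. The control with 18.4, mouse 28, lay above 5 of the 6. The difference of 1.84 (SE 0.50, adjusted p 0.132) passed without that control (2.53, adjusted p 0.00513). It also passed in the fit of all populations with the replicate block (adjusted p 0.0119), where the spread is pooled over all groups.

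Ramp2, the adrenomedullin partner, had the highest mean of the 5 receptor components in the controls of each population, ages together. It did not at day 10 in ocular controls (9.0 RPKM beside 12.1 for Ramp1) or red nucleus controls (3.91 beside 9.99). It averaged 50.48 ± 25.59 RPKM in hypoglossal (SD, n = 12), 48.3 ± 22.9 in lumbar (n = 13), 33.9 ± 14.0 in facial (n = 13), 22.3 ± 16.0 in vagus (n = 11), 17.4 ± 9.34 in ocular (n = 12) and 12.8 ± 18.9 in red nucleus controls (n = 11). The red nucleus lay below facial, hypoglossal and lumbar neurons in every alternative, by 2.04 to 2.49. Exons of Ramp2 overlap those of Vps25 on the same strand in GENCODE M21, so its level could include reads of Vps25. Between SMA and control Ramp2 gave negative estimates in lumbar neurons at each age, −0.44 (SE 0.30) at day 2, −0.66 (SE 0.31) at day 5 and −0.69 (SE 0.32) at day 10, with adjusted p of 0.4655 to 0.918. At day 10 lumbar controls had 38.6, 59.1, 65.5 and 109.55 RPKM and SMA mice 25.3, 26.7, 42.6, 53.3 and 59.5, which overlapped. The 10 endothelial markers summed to a median of 4.18 to 11.7 RPKM in the groups of lumbar controls, and their part in the level of Ramp2 was not tested.

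Ramp3 was low, from 0.783 ± 1.83 RPKM in facial (SD, n = 13) to 3.84 ± 4.54 in vagus controls (n = 11). In lumbar controls it was 0.758, 0.915, 3.38 and 10.2 at day 2 and 0, 0.176, 0.312 and 1.22 at day 10, a log2 difference of −1.40 (SE 0.44, adjusted p 0.0356). The ages overlapped. The call was lost with a pseudocount of 0.1 (adjusted p 0.0603), no filter (0.0535), quantile normalization (0.0659) or a fit of the 2 groups alone (0.186). It was also lost without mouse 240 (−0.85, adjusted p 0.203), 244, 247, 252 or 253. In ocular neurons at day 2 Ramp3 was 0, 0.135, 0.841 and 1.18 in controls and from 0.698 to 8.13 in 6 SMA mice, with a log2 difference of 1.56 (SE 0.50, adjusted p 0.225). Of the 6 SMA mice 5 lay above every control. Hypoglossal neurons at day 2 had a Ramp3 difference of 1.60 (SE 0.52, adjusted p 0.272), with 5 of 6 SMA samples and 1 of 4 controls above the floor. In the other populations at day 2 the estimates ran from −0.78 in red nucleus to 0.11 in vagus neurons. Ramp3 exons overlap Gm11978 on the other strand, and whether counting used strand is not given in the sources used here.

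**Figure D5:**
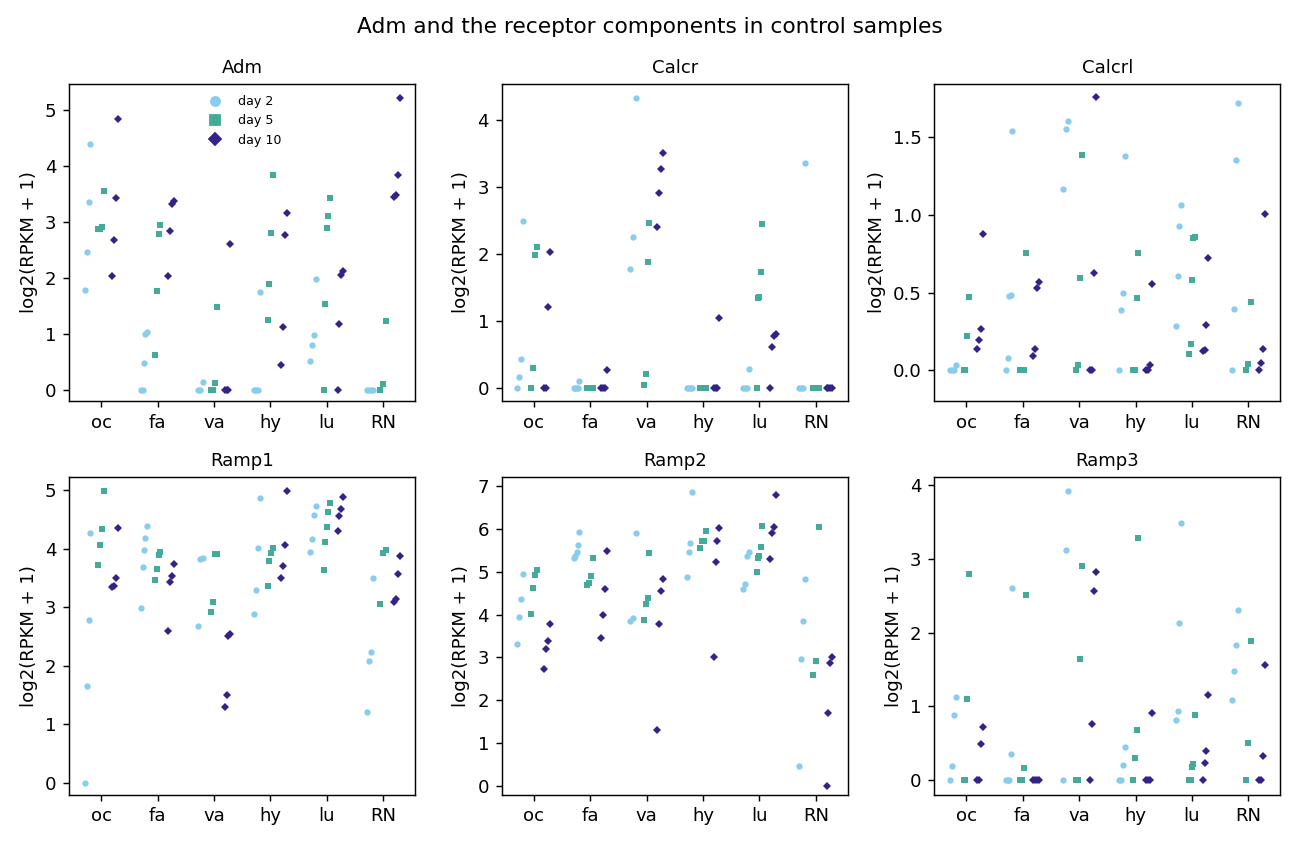
Adm, Calcr, Calcrl, Ramp1, Ramp2 and Ramp3 as log2(RPKM + 1) in the control samples, by population (oc ocular, fa facial, va vagus, hy hypoglossal, lu lumbar, RN red nucleus) and by postnatal day as colour and symbol. Calcr over all ages has its highest mean in vagus, 5.65 RPKM, Adm in the red nucleus is highest at day 10, and Calcrl reaches at most 2.38 RPKM.

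Read as pairs, the 2 transcripts of the CGRP receptor were often both present in the same pooled sample. Whether 1 cell held both, and whether the low Calcrl came from the neurons, cannot be told from these pools. Calcrl and Ramp1 were both above the floor in 22 of 30 lumbar, 19 of 25 vagus, 17 of 27 facial, 15 of 27 hypoglossal, 14 of 28 ocular and 11 of 23 red nucleus samples. Ramp1 alone was above it in nearly all, so Calcrl set these counts. Calcr and Ramp1 were both above it in 24 of 25 vagus, 18 of 30 lumbar and 17 of 28 ocular samples, and in 4 of 27 hypoglossal, 2 of 23 red nucleus and 1 of 27 facial samples. A transcript near the floor can be missed, so a count below the number of samples does not show absence.

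A list of 37 other genes of the pathway covered the enzymes that cut and amidate the peptides, the proteases that break them down and the cyclic AMP machinery below the receptors. Of these, 36 were in the table. None of their 587 results in the 17 contrasts between SMA and control passed the threshold. At an unadjusted p under 0.05 there were 39, or 6.64%, against 7.17% of all gene results, and the list's median lay between −0.05 and 0.20 by contrast. With age in controls, 4 of 34 tested genes of the list were higher and 1 lower at day 10 in ocular neurons, 4 of 34 higher and 5 lower in lumbar, 3 of 35 higher and 1 lower in facial, 2 of 35 higher and 5 lower in hypoglossal, 3 of 35 higher and 2 lower in red nucleus, and 0 of 34 either way in vagus neurons. Over all genes and the 6 populations 7.06% of results passed in either direction. Between SMA and control, the fit with the replicate block called 2 of the list's genes, both in red nucleus neurons at day 2: Mme, the peptidase neprilysin (−1.35, SE 0.35, adjusted p 0.0339), and Arrb2, an arrestin (1.27, SE 0.32, adjusted p 0.0256), which are named after their values were seen. In the fit without the block the oligodendrocyte marker Mbp was higher in SMA in the same comparison (2.22, SE 0.375, adjusted p 0.0351), and its part in these calls was not tested. The share of all genes called with the block is not given here, so nothing is read from the 2 calls.

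Genes whose levels ran most like a member over the 160 samples are given as Pearson's r of log2(RPKM + 1), as a description. The samples share populations, mice and depth. Most like Calca were Anxa2 (r 0.939), Sema3a (0.929) and Chodl (0.921), and most like Calcb were Laptm4b (0.914), Nfia (0.887) and S100b (0.886). After the mean of each group was removed, r fell to 0.101, 0.380 and 0.272 for the Calca set and to 0.255, 0.202 and 0.547 for that of Calcb. Calcr was most like Prlh (0.630), Dbh (0.615) and Kcna5 (0.596). Dbh, the enzyme that makes noradrenaline, averaged 29.6 RPKM in vagus controls, from 3.49 to 65.5 over 11 samples, and at most 0.209 in the controls of any other population, and Prlh, a releasing peptide, 367 ± 373 in vagus controls. The vagus samples held Dbh and Prlh beside Chat, at 21.1 ± 10.5, and the cells that carried Calcr cannot be told from these pools.

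For the remaining members the nearest genes were looser. Iapp was most like Gpr179 (0.614), Them5 (0.611) and Ly6d (0.605), Adm like Sgpp2 (0.665), Cplx1 (0.651) and Suclg1 (0.646), and Ramp1 like Plec (0.541), Rab3a (0.541) and Fstl1 (0.536). Ramp2 was most like Brinp3 (0.595), Fxyd7 (0.584) and Flot2 (0.573), and Ramp3 like Aplp1 (0.481), Fndc9 (0.480) and 4930526A20Rik (0.473). For Adm the within-group r of its first 2 genes was 0.009 and −0.006. Calcrl was too low for such a comparison.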

How the data were processed

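The authors deposited 1 table of RPKM for 39410 genes and 168 libraries. Per the submitters' processing notes, reads were aligned with STAR 2.4.1c, with mm10 and hg19 named as builds; the counter, annotation and use of strand are not given in the sources used here. Libraries of a mouse and population were averaged to 160 samples (8 had more than 1). Depth was recovered from the equal steps of low values of genes with 1 transcript in GENCODE M21. Each library thus had 0.342 to 16.3 M reads, and a floor of 3 reads was set by exon length.

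The test was limma 3.58.1 on log2(RPKM + 1) (R 4.3.3, lmFit and eBayes with a trend), two-sided, with Benjamini-Hochberg adjustment over all genes of a contrast and a threshold of 0.05. A gene needed an RPKM of at least 1 in as many samples as the smallest group held. Each population had its own fit of 6 groups. Fold changes on this scale understate those of low genes. Controls were compared between populations with the mouse as a block, since the labels give 1 mouse number across populations, and the difference between populations at day 10 likewise. The ocular day 10 genotype contrast was not tested. In the alternative fit of all populations with the replicate block, the block was a correlation between samples of a mouse. Each gene there had 1 spread over all 36 groups, so the block is not the only change from the fits of single populations. The script was tested on simulated data.

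The members, the pathway list and the marker lists were chosen with earlier results of these data known. Named genes were the 9 members, the 3 genes most like each member with a group mean of at least 5 RPKM, pathway genes past the threshold (up to 10), and Smn1, Chat, Slc17a6 and Pou4f1. Alternatives were another pseudocount, no filter, quantile normalization, 1 library per sample, fits of the 2 groups alone, fits with or without the replicate block, without trochlear libraries, and leaving out each mouse. Nothing in the labels says how the cells of a tube were spread over sections. In the fits of single populations, p-values measure the spread between mice. Comparisons between populations with the mouse as a block rest on the spread left within mice.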

Additional observations from a re-analysis of the deposited data

Results flagged for a closer look

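Of 139 combinations of a member and a group of 4 to 10 mice in which it averaged at least 5 RPKM, 11 had 1 sample far from the others by Dixon's criterion. Chance gives about 1 in 20 for normally distributed values. Whether RPKM are so distributed was not checked, so the count is not compared with that rate. Calca had 97.3 RPKM in vagus neurons of control mouse 34 at day 5 (next highest 10.7) and 302 in ocular neurons of SMA mouse 38 at day 2 (next 204.99). Calcb had 329.8 in facial neurons of SMA mouse 249 at day 10 (next 245.02), 1572 in lumbar neurons of control mouse 75 at day 5 (next 1275) and 13.7 in red nucleus neurons of control mouse 26 at day 2 (next 8.08). Adm had 10.8 in ocular neurons of control mouse 71 at day 5 (next 6.55) and 36.01 in the shallowest library, red nucleus control mouse 252 at day 10 (next 13.4). Ramp1 had 32.5 in ocular neurons of SMA mouse 207 at day 2 (next 14.3) and 19.5 in ocular neurons of control mouse 247 at day 10 (next 10.4). Ramp2 had 75.2 in ocular neurons of SMA mouse 206 at day 2 (next 28.3) and 30.5 in vagus neurons of SMA mouse 258 at day 10 (next 9.95). All 11 were high values.

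Calcb at day 10 was lower in every SMA than every control sample in ocular neurons (−1.26) and higher in every SMA than every control sample in red nucleus neurons (0.69), which puts the difference between these differences at 1.95 on the log2 scale. This difference was not tested, because the ocular contrast had a part in the choice of the genes. The red nucleus difference alone had an SE of 0.56 and a limma adjusted p of 0.935. The genotypes also did not overlap for Calca in facial neurons at day 10 (adjusted p 0.764) and Ramp1 in vagus neurons at day 5 (0.946), both lower in SMA. How many of all genes did not overlap was not counted, so nothing is read from these cases. In the red nucleus the highest control, 42.6 RPKM, came from the shallowest library, and the lowest SMA sample had 43.3.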

How the results depend on the processing

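The count of 1 member past the threshold between SMA and control in 17 contrasts was 0 with a pseudocount of 0.1, with no filter on low values, from fits of the 2 groups alone, and in the age-averaged contrasts added after the values were seen. It was 3 in the fit of all populations with the replicate block and 0 to 2 when a mouse was left out. The further calls were Ramp1 and Calcr in ocular neurons at day 2, and, without mouse 199, Iapp in hypoglossal neurons; the cause was not tested. For the 37 other pathway genes the count of 0 became 2 with the replicate block. The F test over populations at day 10 called 0 members, and 0 to 1 when a mouse was left out. The count over population pairs, 56, lay between 48 and 56 in all alternatives, and was 56 with no replicate block. The day 10 against day 2 count of 6 lay between 4 and 8. No called value changed sign in any alternative. Depth limits Calcrl, Calcr, Ramp3 and Iapp, for which 3 reads were 0.104 to 0.52 RPKM at the median library.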
